A study of Mus musculus with 6 samples.

Results

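Wnt ligands are secreted, lipid-modified glycoproteins that signal between neighbouring cells, and several of them direct how the kidney forms. The 8 Wnt ligand genes that bear on kidney development (Wnt1, Wnt2b, Wnt4, Wnt5a, Wnt6, Wnt7b, Wnt9b and Wnt11) were followed through all 6 libraries of a chromatin immunoprecipitation sequencing (ChIP-seq) study. They were picked by gene symbol, each symbol had 1 row in every file, and they are 8 of 21937 genes. Wnt6 lies on chromosome 1, Wnt2b on 3, Wnt4 on 4, Wnt11 on 7, Wnt9b on 11, Wnt5a on 14, and Wnt1 and Wnt7b on 15, with exons that add up to between 1106 bases (Wnt4) and 4523 bases (Wnt9b). The samples were mK4 and mK3, a pair of immortalized mouse cell lines of E11.5 metanephros, both from strain CD1 and each a single line. For each line there was 1 H3K4 library, 1 H3K27 library and 1 of input, which is chromatin sequenced without an antibody step. As background, mK4 is known as a model of induced metanephric mesenchyme that is turning epithelial, and mK3 of earlier, uninduced mesenchyme. The values are reads over exons, so the number for a gene is a share of 714011 (mK4 H3K4), 595305 (mK3 H3K4), 481235 (mK4 H3K27), 593079 (mK3 H3K27), 386695 (mK4 input) or 311409 (mK3 input) exon reads. As every group is a single library, the spread between replicates is unknown and nothing was tested for significance. Ranges in parentheses are 95% exact counting intervals, which cover counting error only.

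In the developing kidney, the ureteric bud sends Wnt9b to the surrounding mesenchyme, where it switches on Wnt4, and Wnt4 then drives mesenchymal cells to become the epithelium of the nephron. Wnt11 marks the tips of the bud, Wnt7b is made by its stalk and is needed to form the medulla, and Wnt6 is also made by the bud. Wnt5a is a ligand of mesenchymal cells that signals largely without beta-catenin, Wnt2b comes from mesenchyme and stroma around the bud, and Wnt1, better known from the midbrain, can replace the natural inducer in kidney explants. Active promoters generally carry methylated H3K4, genes silenced by Polycomb proteins carry trimethylated H3K27, and genes with both are called bivalent. How many methyl groups the antibodies detect is not stated in the labels. The catalogue number given with the H3K4 libraries, ab8898, is one under which Abcam sells an antibody against trimethylated H3K9, so that H3K4 below means the libraries labelled so.

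The 300 bases around 3 of the start sites are shown because they belong to the member called for H3K27 in both lines (Wnt1), the one with the densest H3K27 reads in mK3 (Wnt6) and one without either mark (Wnt2b). They run from 250 bases before to 50 bases after the RefSeq start, 5′ to 3′, in assembly GRCm38.p6. Capitals mark the CG dinucleotide, which reads the same on both strands.
Wnt1, chr15:98789607-98789906, plus strand: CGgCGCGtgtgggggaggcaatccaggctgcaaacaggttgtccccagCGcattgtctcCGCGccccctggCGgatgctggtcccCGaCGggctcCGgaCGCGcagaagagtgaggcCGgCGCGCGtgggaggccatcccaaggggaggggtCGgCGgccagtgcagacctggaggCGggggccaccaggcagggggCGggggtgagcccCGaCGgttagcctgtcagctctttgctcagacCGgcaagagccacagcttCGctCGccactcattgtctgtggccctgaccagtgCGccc
Wnt6, chr1:74771642-74771941, plus strand: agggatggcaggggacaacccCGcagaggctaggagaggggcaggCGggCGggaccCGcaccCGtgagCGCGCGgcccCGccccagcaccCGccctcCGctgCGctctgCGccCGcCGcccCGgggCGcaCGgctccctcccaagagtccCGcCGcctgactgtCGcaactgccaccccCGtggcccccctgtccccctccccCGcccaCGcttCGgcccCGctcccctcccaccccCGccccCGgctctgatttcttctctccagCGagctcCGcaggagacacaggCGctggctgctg
Wnt2b, chr3:104961660-104961959, minus strand: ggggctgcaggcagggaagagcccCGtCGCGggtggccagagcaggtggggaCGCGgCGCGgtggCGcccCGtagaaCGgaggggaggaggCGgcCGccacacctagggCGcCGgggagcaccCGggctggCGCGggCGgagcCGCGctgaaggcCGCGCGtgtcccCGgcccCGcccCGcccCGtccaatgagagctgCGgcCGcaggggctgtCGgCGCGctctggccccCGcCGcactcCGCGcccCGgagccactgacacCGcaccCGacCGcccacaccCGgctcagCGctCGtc
These windows held 26 CG in Wnt1, 31 in Wnt6 and 43 in Wnt2b, against a median of 7 over 32851 RefSeq promoter windows of the same length, of which 94.6% hold at least 1. RefSeq windows were matched for 6 of the 8 members, 7 windows in all, and each had between 23 and 51 CG and a ratio of observed to expected CG above 0.6, as did 35.8% of all windows. Wnt4 had 51 CG and Wnt9b 29, and the 2 windows of Wnt11 had 45 and 23. Wnt2b, without either mark over input, thus had a window richer in CG than Wnt1 and Wnt6. Over all genes with a window, and with the call described below, H3K27 marked 5.37% in mK4 and 6.14% in mK3 of the 7492 genes above that ratio. Of the 7209 genes at or below it, H3K27 marked 13.2% in mK4 and 15.1% in mK3. The counted reads lie over exons, so a window before the start is context for these genes and was not itself measured.

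Measured against input, more of these ligands had H3K27 than H3K4, as over all genes, and more had H3K27 in mK3 than in mK4. A gene is called marked when its ChIP reads were at least 2-fold its line's own input, with both scaled to equal totals and 5 added to each. H3K27 marked 1 of the 8 genes in mK4 (Wnt1) and 4 of the 8 in mK3 (Wnt1, Wnt4, Wnt6 and Wnt7b), where it marked 9.06% of all genes in mK4 and 10.3% in mK3. H3K4 marked 0 of 8 in mK4 and 2 of 8 in mK3 (Wnt1 and Wnt7b), against 3.69% of all genes in mK4 and 4.94% in mK3. With exon length in place of input as the background, H3K27 marked 3 in mK4 (Wnt1, Wnt2b and Wnt6). In mK3 it also marked 3 (Wnt1, Wnt6 and Wnt7b), so that the lines no longer differed in number. By that background H3K27 marked 6.34% of all genes in mK4 and 3.37% in mK3. Of the 3 in mK4, Wnt2b had H3K27 at 0.765-fold its input (0.574 to 1.02). Against input, both marks were high together at 0 of the 8 in mK4 and at 2 of the 8, Wnt1 and Wnt7b, in mK3, beside 0.78% and 1.39% of all genes in those lines. The H3K27 values nearest the threshold of 1 on the log2 scale were, in mK4, 1.82 at Wnt1 inside it and 0.89 at Wnt6 outside it. In mK3 they were 1.54 at Wnt4 and 0.77 at Wnt9b. For H3K4 in mK3 both calls were narrow, with 1.05 at Wnt1 and 1.05 at Wnt7b, and the next member was Wnt4 at 0.23. Counts from separate libraries do not show whether both marks lay in the same cells, and fewer cells with a mark cannot be told apart from less of it per cell.

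**Figure D1:**
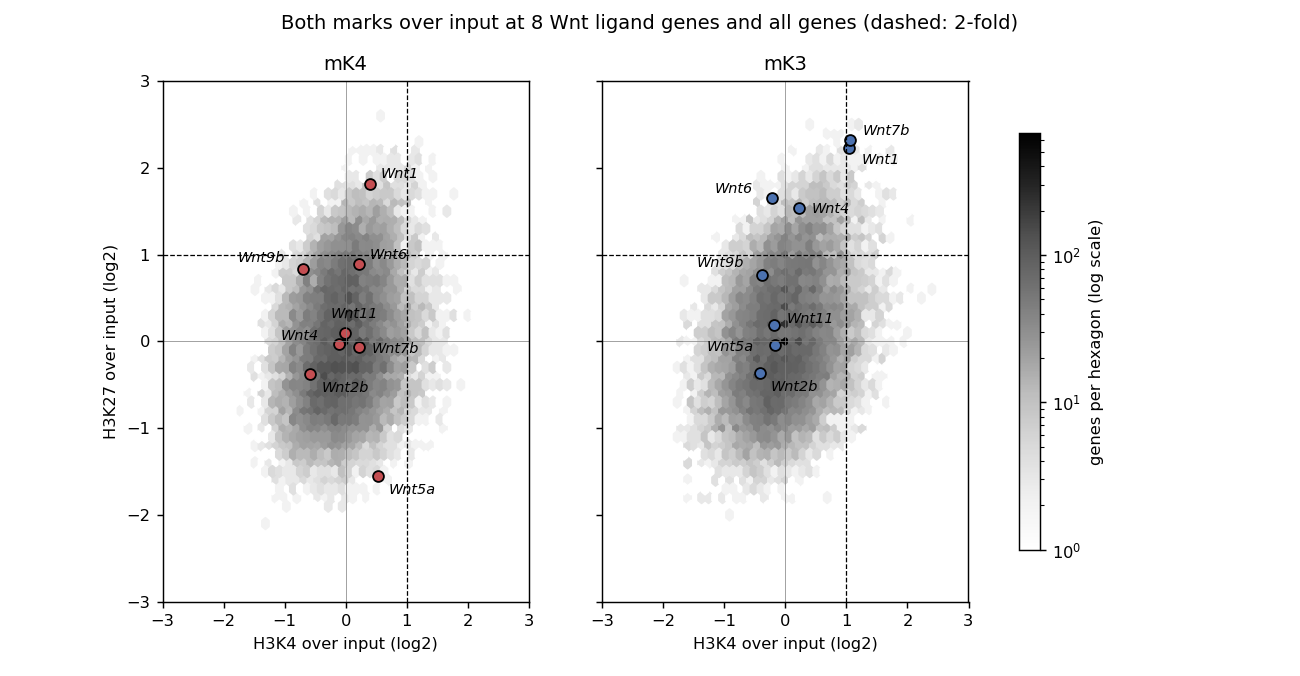
H3K27 over input (y axis, log2) against H3K4 over input (x axis, log2) in mK4 (left) and mK3 (right). Grey hexagons count all 21937 genes, points are the 8 ligand genes and dashed lines are 2-fold. Wnt1 and Wnt7b lie past both lines in mK3, and no member does in mK4.

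Summed over the 8 genes, H3K27 held 302 reads against 217 input reads in mK4 (1.12-fold by read share, 0.936 to 1.34) and 436 against 116 in mK3 (1.97-fold, 1.6 to 2.44). For H3K4 the sums were 364 reads in mK4 (0.908-fold its input, 0.766 to 1.08) and 220 in mK3 (0.992-fold, 0.789 to 1.25). Only the H3K27 sum of mK3 thus had an interval without 1. Wnt2b alone held 103 of the 217 input reads of mK4. Without it, a choice made after its values were seen, the H3K27 sums were 1.44-fold input in mK4 (1.14 to 1.82) and 2.52-fold in mK3 (1.98 to 3.25). The median of the 8 log2 values of H3K27 over input was 0.03 in mK4 and 1.15 in mK3, beside 0 over all genes in each line. For H3K4 the median was 0.10 in mK4 and -0.18 in mK3, beside 0 over all genes.

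**Figure D2:**
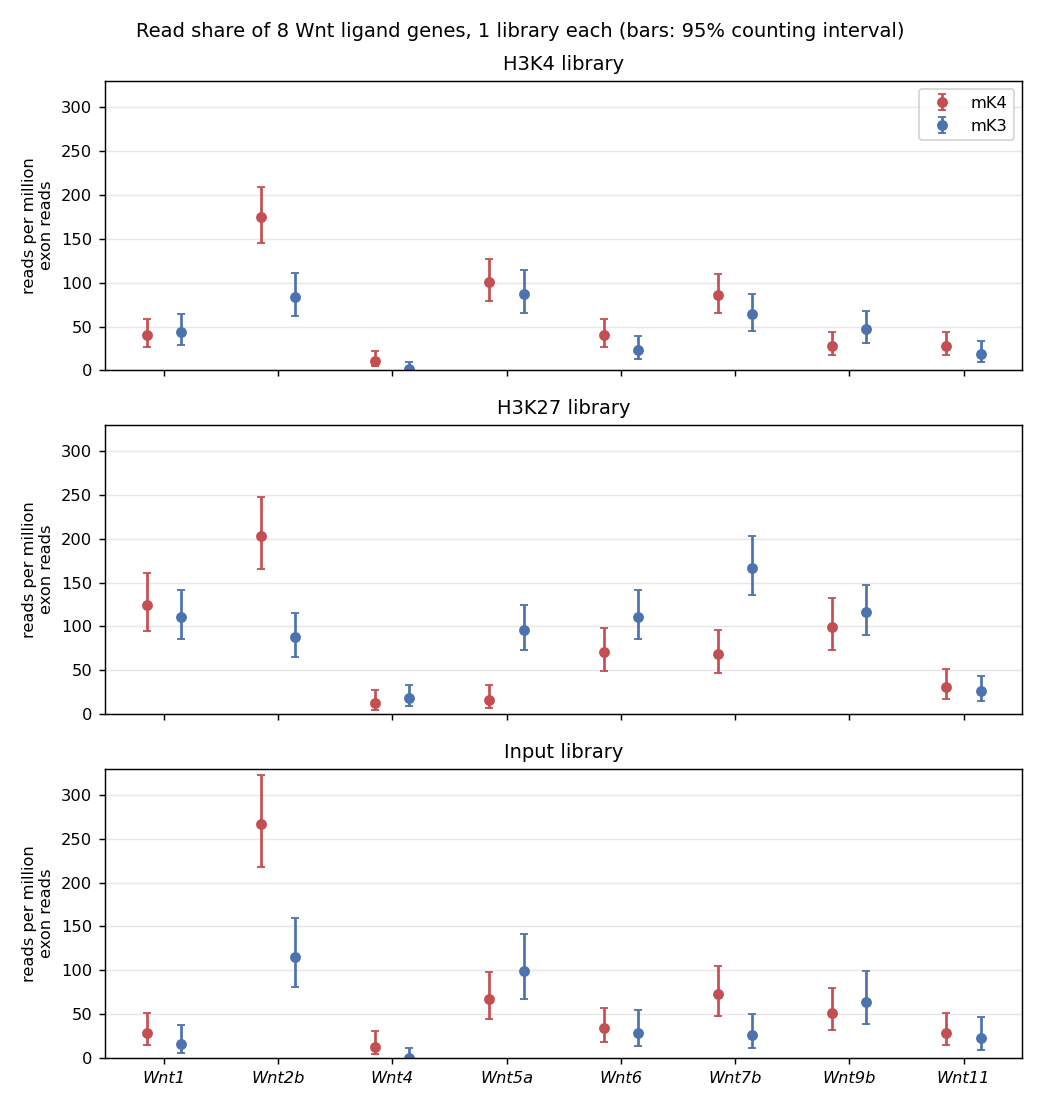
Share of exon reads (y axis, RPM) of each of the 8 genes (x axis) in the H3K4, H3K27 and input libraries of mK4 (red) and mK3 (blue). Each point is 1 library and bars are 95% counting intervals. In H3K27 the mK3 points of Wnt5a and Wnt7b lie above the mK4 points with bars that do not overlap, and Wnt2b is high in all 3 libraries of mK4.

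At Wnt9b, the inducer, H3K4 lay at 0.542-fold input in mK4 (0.277 to 1.06) and 0.732-fold in mK3 (0.398 to 1.37). Wnt4, the gene that Wnt9b switches on, had too few reads to tell whether H3K4 was low. Wnt9b had 20 H3K4 reads in mK4 and 28 in mK3, 48 H3K27 reads in mK4 and 69 in mK3, and 20 input reads in each line. Its H3K27 lay 1.93-fold over input in mK4 (1.12 to 3.43) and 1.81-fold in mK3 (1.09 to 3.15), both just under the 2-fold call. A difference between the lines was not resolved, at 0.857-fold in mK4 against mK3 (0.58 to 1.26) for H3K27 and 0.596-fold (0.318 to 1.1) for H3K4. Wnt4, with the shortest exons of the 8 at 1106 bases, had too few reads for a firm statement. It had 8 H3K4 reads in mK4 and 1 in mK3, 6 H3K27 reads in mK4 and 11 in mK3, and 5 input reads in mK4 and 0 in mK3. With the 0 replaced by a floor of 3 reads in that library, or 9.63 RPM, its H3K27 in mK3 was 1.93-fold over input, and the exact interval of 11 against 0 reads allows a fold as low as 1.32. Measured against exon length in place of input, its H3K27 value in mK3 was 0.10 on the log2 scale and the call was lost. The H3K4 fold of Wnt4 between the lines was 6.67, with an interval of 0.894 to 296. Its H3K27 difference was -0.35 on the log2 scale as measured and -0.16 with the neighbours' input subtracted. With its own input subtracted the H3K27 difference was -1.57, which rests on the 0 input reads of mK3.

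Among the bud ligands, Wnt7b carried H3K27 over input in mK3 and not in mK4. Wnt7b had 33 H3K27 reads in mK4 and 99 in mK3, 61 H3K4 reads in mK4 and 38 in mK3, and 28 input reads in mK4 and 8 in mK3. H3K27 lay 0.947-fold input in mK4 (0.555 to 1.63) and 6.5-fold in mK3 (3.17 to 15.5), and the mK3 value exceeded that of 99.8% of all genes. Between the lines its H3K27 share was 2.43-fold lower in mK4 (1.63 to 3.73). Its input moved the other way and was 2.82-fold higher in mK4 (1.25 to 7.16), whereas the input of the 10 genes on each side differed by -0.078 on the log2 scale. The H3K27 difference was -1.17 on the log2 scale as measured, -2.39 with its own input subtracted and -1.10 with the neighbours' input subtracted. The H3K4 call of Wnt7b in mK3 was 2.48-fold over input (1.14 to 6.17) and rested on those 8 input reads. By exon length its H3K4 in mK3 was 0.08 on the log2 scale, so the call of both marks was lost, while its H3K27 stayed past the threshold at 1.22.

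Wnt6 had more H3K27 than input in both lines and passed the 2-fold call in mK3. It had 34 H3K27 reads in mK4 and 66 in mK3, 29 H3K4 reads in mK4 and 14 in mK3, and 13 input reads in mK4 and 9 in mK3. H3K27 lay 2.1-fold over input in mK4 (1.08 to 4.34) and 3.85-fold in mK3 (1.91 to 8.79), and its H3K27 density in mK3, 53.7 RPKM (reads per exon kilobase scaled to the library total, 41.5 to 68.3), was the highest of the 8. Its mK4 value missed the call because of the added 5 reads. Against exon length Wnt6 passed in both lines, at 1.08 in mK4 and 1.57 in mK3 on the log2 scale. Its H3K27 share was 1.58-fold lower in mK4 (1.03 to 2.46), which is short of 2-fold. Wnt11 had few reads and no sign of either mark. It had 20 H3K4 reads in mK4 and 11 in mK3, 15 H3K27 reads in mK4 and 16 in mK3, and 11 input reads in mK4 and 7 in mK3. Every interval over input at Wnt11 included 1, and the highest fold was 1.2 for H3K27 in mK3 (0.467 to 3.45). At this depth its interval leaves room for values up to that upper bound.

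Wnt5a, the mesenchymal ligand, had the largest H3K27 difference of the 8 before input was taken into account. It had 8 H3K27 reads in mK4 and 57 in mK3, while H3K4 gave 72 in mK4 and 52 in mK3 and input 26 in mK4 and 31 in mK3. Its H3K27 share was 5.78-fold lower in mK4 (2.74 to 14), and only 0.0593% of all genes had a lower log2 ratio. H3K27 lay below input in mK4, at 0.247-fold (0.0967 to 0.562), and was not told apart from input in mK3, at 0.965-fold (0.613 to 1.55). Wnt5a is thus not a marked gene in either line, although its exons had fewer H3K27 reads in mK4. The gene lies on chromosome 14, whose summed input was 0.644-fold in mK4 against mK3, and its own input was 1.48-fold lower (0.851 to 2.6). With either its own input or that of its neighbours subtracted, the H3K27 difference was -1.50 on the log2 scale, short of the -2.01 before subtraction but still past 2-fold. At Wnt7b the H3K27 difference was larger than at Wnt5a with own input subtracted, at -2.39, and smaller with the neighbours' input subtracted, at -1.10. At Wnt5a H3K4 did not drop along with H3K27 and was 1.15-fold in mK4 against mK3 (0.797 to 1.68).

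Wnt2b was higher in mK4 in every kind of library. It had 125 H3K4 reads in mK4 and 50 in mK3, 98 H3K27 reads in mK4 and 52 in mK3, and 103 input reads in mK4 and 36 in mK3. By read share mK4 was 2.08-fold higher in H3K4 (1.49 to 2.95), 2.32-fold in H3K27 (1.64 to 3.32) and 2.3-fold in input (1.56 to 3.47). Wnt2b lies on chromosome 3, whose summed input was 1.84-fold higher in mK4, and the input of its 10 neighbours on each side was 1.28 higher on the log2 scale. With its own input subtracted, the log2 difference was -0.0081 for H3K27 and -0.16 for H3K4, and with the neighbours' input it was -0.15 for H3K27 and -0.30 for H3K4. Neither mark lay over input, with H3K27 at 0.765-fold in mK4 (0.574 to 1.02) and 0.758-fold in mK3 (0.486 to 1.19). H3K4 lay at 0.657-fold in mK4 (0.502 to 0.862) and 0.727-fold in mK3 (0.464 to 1.15).

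Wnt1 was the only one of the 8 that H3K27 marked in both lines. It had 60 H3K27 reads in mK4 and 66 in mK3, 29 H3K4 reads in mK4 and 26 in mK3, and 11 input reads in mK4 and 5 in mK3. H3K27 lay 4.38-fold over input in mK4 (2.28 to 9.25) and 6.93-fold in mK3 (2.82 to 22), above 99.2% and 99.8% of all genes. By read share a difference between the lines was not resolved, at 1.12-fold in mK4 against mK3 (0.776 to 1.61). That log2 difference of 0.15 became -0.41 with its own input subtracted and 0.84 with the neighbours' input subtracted, so its direction depends on the input used. The H3K4 reads were also near equal in share, at 0.93-fold (0.529 to 1.64), while H3K4 over input was 1.43-fold in mK4 (0.692 to 3.17), with 11 input reads, and 2.72-fold in mK3 (1.03 to 9.07), with 5. Against exon length the H3K4 values were 0.30 in mK4 and 0.35 in mK3 on the log2 scale, and the call of both marks was lost. H3K27 stayed past the threshold in that form, at 1.67 in mK4 and 1.42 in mK3. In a further form, with 20 in place of 5 reads added, neither Wnt1 nor Wnt7b kept its H3K4 call.

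**Figure D3:**
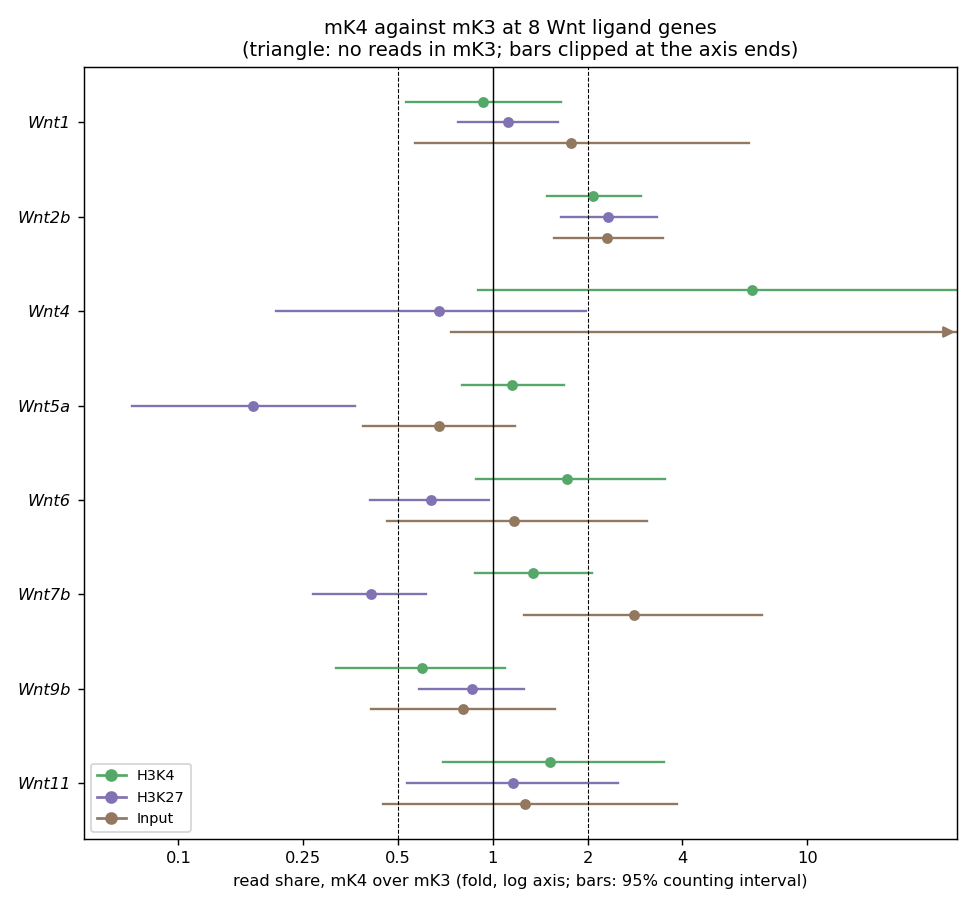
Read share in mK4 over mK3 (x axis, fold on a log axis) for H3K4, H3K27 and input at each of the 8 genes (y axis). Points are folds of 1 library each, bars are 95% counting intervals and dashed lines are 2-fold. Wnt5a and Wnt7b lie below 0.5 in H3K27, and all 3 values of Wnt2b lie above 2.

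Between the lines, 1 of the 8 (Wnt2b) passed 2-fold toward more H3K27 in mK4 and 2 (Wnt5a and Wnt7b) toward less, where 3.73% of all genes were higher and 3.54% lower. With the 5 reads added, 0 of the 8 were past 2-fold in H3K4 in either direction, where 4.51% of all genes were higher and 2.99% lower. Wnt2b lay just inside at 0.98 on the log2 scale and Wnt4 at 0.88, and with 1 read added in place of 5 there were 2 past 2-fold higher. In input, 3 of the 8 (Wnt2b, Wnt4 and Wnt7b) were past 2-fold higher in mK4 and 0 lower, where 7.26% of all genes were higher and 6.2% lower. The highest input ratio of these, at Wnt4, rested on 5 reads against 0. The median log2 difference of the 8 was 0.40 for H3K4, -0.28 for H3K27 and 0.41 for input, beside -0.02, -0.06 and 0 over all genes. Summed over the 8, the H3K27 share in mK4 was 0.854-fold that of mK3 (0.735 to 0.991), and without Wnt2b it was 0.655-fold (0.55 to 0.778). The summed H3K4 share was 1.38-fold (1.16 to 1.64), and without Wnt2b 1.17-fold (0.959 to 1.44). Summed input was 1.51-fold (1.2 to 1.9), and without Wnt2b 1.15-fold (0.855 to 1.55). The part of the input differences in these calls was not tested beyond the subtracted values.

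**Figure D4:**
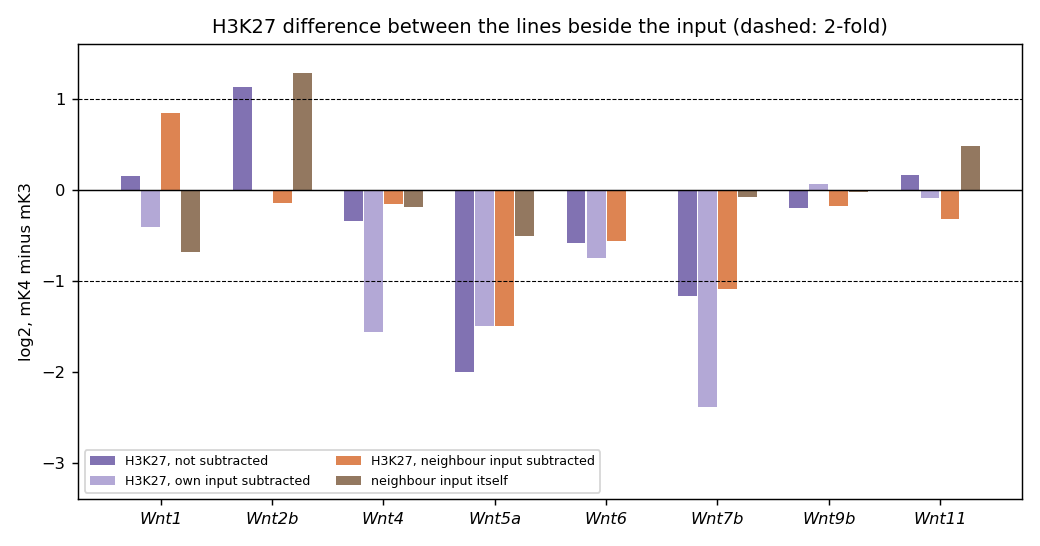
Log2 difference of H3K27, mK4 minus mK3 (y axis), at each of the 8 genes (x axis), as measured, with the gene's own input difference subtracted and with that of the 10 genes on each side subtracted. The brown bar is the neighbours' input difference itself and dashed lines are 2-fold. Wnt5a and Wnt7b stay below -1 in all 3 forms, and the Wnt2b difference disappears in both subtracted forms. Wnt4 lies below -1 only with its own input subtracted, at -1.57, where its mK3 input had 0 reads.

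Within a line, H3K27 exceeded H3K4 on the log2 scale at 6 of the 8 in mK4 and 8 of the 8 in mK3, where it did so at 48.6% and 52.6% of all genes. The counting interval lay above 1 at only 3 of the 8 in mK4 (Wnt1, Wnt6 and Wnt9b). In mK3 it did so at 5 of the 8 (Wnt1, Wnt4, Wnt6, Wnt7b and Wnt9b). In both lines H3K27 also exceeded H3K4 at all 11 other Wnt ligand genes, though at Wnt8a in mK3 each mark had 20 reads. The median log2 ratio of H3K27 over H3K4 of those 11 was 1.01 in mK4 and 0.98 in mK3, against 0.16 and 1.17 for the 8. In mK4 H3K27 was at least 2-fold above H3K4 at 2 of the 8 (Wnt1 and Wnt9b) and at least 2-fold below at 1 (Wnt5a), where 10.4% and 9.32% of all genes were. In mK3 it was at least 2-fold above at 5 of the 8 (Wnt1, Wnt4, Wnt6, Wnt7b and Wnt9b), where 11.8% of all genes were. Wnt5a had the lowest balance in mK4, with H3K27 6.07-fold below H3K4 (2.92 to 14.6), whereas in mK3 its 2 marks were even at 1.1-fold (0.742 to 1.63). Wnt6 had the highest log2 balance in mK3, with H3K27 1.74-fold H3K4 in mK4 (1.03 to 2.96) and 4.73-fold in mK3 (2.63 to 9.12), while the 11-fold of Wnt4 in mK3 rested on 11 H3K27 reads and 1 H3K4 read.

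Ordered by H3K27 density in RPKM, mK4 ran from Wnt2b (56.9) through Wnt1 (52.5), Wnt6 (34.1), Wnt9b (22.1), Wnt7b (15.5), Wnt4 (11.3) and Wnt11 (11.2) to Wnt5a (3.89). Only the last step, between Wnt11 and Wnt5a, was larger than counting error between neighbours. In mK3 the order was Wnt6 (53.7), Wnt1 (46.9), Wnt7b (37.8), Wnt9b (25.7), Wnt2b (24.5), Wnt5a (22.5), Wnt4 (16.8) and Wnt11 (9.66), where only the step between Wnt7b and Wnt9b was. For H3K4 the density lay between 6.19 and 48.9 in mK4, with Wnt9b lowest and Wnt2b highest, and between 1.52 and 23.5 in mK3, with Wnt4 lowest and Wnt2b highest. In H3K4 only the step between Wnt2b and Wnt5a in mK4 was larger than counting error. These orders take no account of input. The input density of Wnt2b was 74.4 in mK4 and 32.3 in mK3, above its density in either mark in the same line.

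Wnt genes lie next to 3 of the members. Wnt10a, the neighbour of Wnt6 on chromosome 1, was also marked in mK3, with 40 H3K27 reads in mK4 (1.89-fold input, 1.05 to 3.56) and 49 in mK3 (2.86-fold, 1.39 to 6.62). Wnt10b, next to Wnt1 on chromosome 15, was under the call in both lines, with 20 H3K27 reads in mK4 (0.699-fold input, 0.364 to 1.33) and 31 in mK3 (1.63-fold, 0.778 to 3.72). Wnt3, next to Wnt9b on chromosome 11, had 26 H3K27 reads in mK4 and 44 in mK3, with 2 input reads in mK4 and 12 in mK3.

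The genes most like each member were sought by the Euclidean distance of log2 scaled counts over the 6 libraries, centred on each gene, among genes within 2-fold of its mean. The nearest to Wnt7b were Lhx1 (0.43) and Palm3 (0.62), where the median distance was 2.02. Lhx1, a LIM homeobox gene of early nephrons, had 35 H3K27 reads in mK4 and 110 in mK3, and the same input counts as Wnt7b, 28 and 8. The nearest to Wnt5a were Sh3bp5 (0.51), also on chromosome 14, and Hoxa7 (0.60), with a median of 1.88. Both had few H3K27 reads in mK4, 5 at Sh3bp5 and 11 at Hoxa7, against 29 and 40 in mK3. Those of Wnt1 were Inhbc (0.35) and Esrp1 (0.38), and those of Wnt6 were Prss44 (0.21) and Galr1 (0.26). Those of Wnt9b were Neurl1a (0.21) and Panx3 (0.21), and those of Wnt2b were Atp7a (0.19) on chromosome X and Fndc7 (0.23) on chromosome 3. Wnt4 was nearest to Oosp1 (0.28) and Aym1 (0.29), and Wnt11 to Arpm1 (0.18) and Dfnb59 (0.19).

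The other 11 Wnt ligand genes were counted in the same way. H3K27 marked 4 of the 11 in mK4 (Wnt3, Wnt7a, Wnt8a and Wnt8b) and 2 of the 11 in mK3 (Wnt8b and Wnt10a), and H3K4 marked 0 in either line. Over all genes H3K27 marked 9.06% in mK4 and 10.3% in mK3, and H3K4 marked 3.69% in mK4 and 4.94% in mK3. Wnt8b was the one marked in both, with 71 H3K27 reads in mK4 (2.85-fold input, 1.72 to 4.95) and 83 in mK3 (3.11-fold, 1.75 to 5.94). Their median H3K27 over input was 0.69 in mK4 and 0.64 in mK3 on the log2 scale, against 0.03 and 1.15 for the 8, and a difference between the 2 sets was not tested. Between the lines 0 of the 11 were past 2-fold in either mark. Over all genes, 4.51% were higher and 2.99% lower in H3K4, and 3.73% higher and 3.54% lower in H3K27.

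Among the pathway genes, 3 of the lists held a gene with a marked difference or with both marks. Among 4 feedback targets, Lef1, a nuclear partner of beta-catenin, had 186 H3K4 reads in mK4 and 50 in mK3 (3.1-fold, 2.26 to 4.33), with input 2.85-fold higher in mK4 on chromosome 3. Axin2, a negative regulator induced by Wnt signals, had 25 H3K27 reads in mK4 and 69 in mK3 (0.447-fold, 0.271 to 0.715), with an input fold of 0.956 (0.466 to 1.99). Notum, which removes the lipid from Wnt proteins, held both marks in mK4, with 31 H3K4 and 44 H3K27 reads over 6 input reads. Rspo3, which strengthens Wnt signals, did so in mK4 with 22 H3K4 and 15 H3K27 reads over 4 input reads, and its input was 0.146-fold in mK4 against mK3 (0.0367 to 0.431). In mK3 Rspo3 had 40 H3K4 and 46 H3K27 reads over 22 input reads, and its H3K27 share was 0.402-fold in mK4 against mK3 (0.208 to 0.733).

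The counts of the following lists are to be read beside the shares of all genes, which were 9.06% (H3K27) and 3.69% (H3K4) marked in mK4 and 10.3% (H3K27) and 4.94% (H3K4) in mK3. Of 15 receptors and co-receptors, H3K27 marked 2 in mK4 and 1 in mK3 and H3K4 marked 0 in mK4 and 1 in mK3. In H3K4, 0 were 2-fold higher and 3 were 2-fold lower in mK4 (Fzd2, Fzd3 and Fzd8), beside 2.99% of all genes lower, and none of those 3 was marked. Their H3K4 folds were 0.481 (0.371 to 0.622), 0.437 (0.338 to 0.563) and 0.345 (0.216 to 0.54), beside input folds of 0.604, 0.703 and 0.456. Of 10 secreted antagonists, H3K27 marked 2 in mK4 and 4 in mK3, and 1 (Sfrp2) was 2-fold lower in H3K4. Of 11 signal transduction genes, H3K27 marked 0 in mK4 and 1 in mK3, H3K4 marked 2 in mK4 and 0 in mK3, and 0 were past 2-fold between the lines. Of 9 R-spondin and receptor genes, H3K27 marked 2 in mK4 and 1 in mK3, and of 3 secretion genes 1 in each. In H3K27, Wls, the carrier that brings Wnt proteins to the cell surface, was 3.56-fold higher in mK4 (2.05 to 6.47), with input 2.06-fold higher on chromosome 3, and Sp5 was 0.357-fold (0.164 to 0.712). Fzd2, Fzd3, Fzd8, Sfrp2, Wls and Sp5 are named after their values were seen.

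Chromatin marks do not measure expression, so the labelled origin of the lines could be checked only in part. Of 6 nephron progenitor genes (Six2, Osr1, Eya1, Sall1, Wt1 and Cited1), H3K4 marked 0 in either line and H3K27 marked 0 in mK4 and 1, Six2, in mK3. Foxd1, of renal stroma, had H3K4 at 1.02 over input in mK4 and 0.96 in mK3 on the log2 scale. It was thus just inside the H3K4 call in mK4 and just outside it in mK3. H3K27 at Foxd1 lay at -1.37 in mK4 and -0.49 in mK3 on that scale. Of 3 induced nephron genes (Pax2, Pax8 and Lhx1), H3K4 was 2-fold higher in mK4 at 2 and H3K27 2-fold lower at 2, beside 4.51% and 3.54% of all genes. H3K4 marked 0 of the 3 in either line, and H3K27 marked 0 in mK4 and 1 in mK3. Of 3 endothelial genes H3K27 marked 0 in mK4 and 1, Cdh5, in mK3, and of 2 blood genes neither mark was called in either line.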

How the data were processed

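ChIP-seq of H3K4, H3K27 and input chromatin in mK4 and mK3 cells gave 1 library per group. Groups came from the sample titles. Per the file headers, the authors deposited whole read counts per gene with the length of its exons, and RPKM, which scales them by exon kilobases and the library total. The deposited RPKM could be recomputed from the counts and each file's own count total. Per the submitters' processing notes the reads were placed on mm9. The aligner and the handling of duplicate reads were not given in the sources used here.

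Of 22088 gene rows, 21937 genes remained once repeated symbols were reduced to their strongest row in the 4 ChIP libraries. Counts were scaled to a total of 513622, the mean of the 6, and compared as log2 of the scaled count plus 5. Printed folds are ratios of read shares without that addition, with exact Clopper-Pearson intervals. Gene order came from RefSeq GRCm38.p6, with 19325 genes matched by symbol, 2302 by synonym and 310 unmatched. Promoter windows came from the same assembly, with the first window per gene used for the shares of all genes. Python 3.11.15, numpy 2.4.6, pandas 2.3.3, scipy 1.17.1 and matplotlib 3.10.9 were used.

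The members and lists were chosen with earlier results of these data known. Named genes are the members, pathway genes with both marks or with a marked 2-fold difference (up to 4 per list), adjacent Wnt genes and the 2 genes nearest to each member, leaving out clone-named and small RNA genes. The alternatives were other added counts, scalings, thresholds, a read minimum, exon length as background and subtracted input. The result of 1 marker list is not reported here.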

Additional observations from a re-analysis of the deposited data

Results flagged for a closer look

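At 2 genes H3K27 over input, and at 3 genes H3K4 over input, had opposite signs in the 2 lines. The log2 values of H3K27 at Wnt7b were -0.069 in mK4 and 2.32 in mK3, and those at Wnt4 were -0.030 in mK4 and 1.54 in mK3. For H3K4 the values were 0.52 in mK4 and -0.17 in mK3 at Wnt5a, 0.22 in mK4 and -0.22 in mK3 at Wnt6, and -0.11 in mK4 and 0.23 in mK3 at Wnt4. With 1 library per group these differences between the lines were not tested, and the H3K4 values all lie within 2-fold of input. The counting intervals of these H3K4 values, and of the H3K27 values in mK4, all included 1, so those signs were not resolved. H3K4 at Wnt4 in mK3 was 1 read against 0 in input.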

How the results depend on the processing

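Of 98 recomputed counts of members, 74 stayed within 1.5 times the reported count and 24 did not. With 1 read added in place of 5, H3K27 marked 2 members in mK4, and 2 had H3K4 at least 2-fold higher in mK4. With 20 added, H3K4 marked 0 in mK3 and both marks 0 in mK3, and H3K27 was 2-fold higher in mK4 at 0 and lower at 1, with input higher at 0. A 3-fold threshold gave the same 5 counts, namely 0, 0, 0, 1 and 0. Centring on the median of all genes, or totals without chromosomes 3, 7, 14 and X, each put 1 member past 2-fold higher H3K4. Exon length as background gave 1 (H3K4) and 3 (H3K27) marked in mK4, 0 by H3K4 and 3 by H3K27 in mK3, and both marks at 1 in mK4 (Wnt2b) and 0 in mK3. It marked 9.46% and 9.03% of all genes by H3K4 in mK4 and mK3, and 6.34% and 3.37% by H3K27. Intervals excluding 1 in place of 2-fold gave 3 marked by H3K27 in mK4 and 1 with higher H3K4. With own input subtracted, H3K27 was higher at 0 and lower at 3 (Wnt4, Wnt5a and Wnt7b). With neighbour input H3K27 was higher at 0 and H3K4 at 1 (Wnt4). The Wnt2b H3K27 difference changed sign in both, to -0.0081 and -0.15. Of 341 recomputed single values, 321 stayed inside their counting interval and 20 did not. The sign changed in 22, of which 20 were within 2-fold before and the other 2 are those of Wnt2b. A minimum of 10 reads summed over the libraries compared left the counts within 1.5 times, with 7 of 8 members passing for mK3 H3K4 over input and for H3K4 and input between the lines (all but Wnt4), and 8 of 8 otherwise. No paired analysis was possible because each group holds 1 library, and for the same reason no library could be left out. The cause of these changes was not tested. Depth limits Wnt4 and Wnt11 most.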
